A study of Mus musculus with 10 samples.

Results

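The genes described here are the major histocompatibility complex (MHC) chains of the mouse and the machinery that loads them with peptide. They are every protein-coding gene of the deposited table whose symbol starts with H2-, together with B2m, Tap1, Tap2, Tapbp, Psmb8, Psmb9, Psmb10, Nlrc5, Cd74 and Ciita, which makes 48 of 56748 genes. Of these 27 encode class I heavy chains, 8 the class I machinery, 10 class II chains and 2 the class II machinery, and H2-Ke6 carries the prefix without encoding an MHC chain. RNA was sequenced from 10 mouse samples. The tumours were 3 of a model that combines Akt, Nras and Foxo1AAA, here named Akt/Nras/Foxo1AAA tumours, and 3 of a model without Foxo1AAA, named Akt/Nras tumours. The other 4 were normal livers. All are labelled wild type, which leaves the injected genes as the only stated genetic difference. The tumours model hepatocellular carcinoma (HCC) and were started by hydrodynamic tail vein injection, a fast injection of DNA into the tail vein that reaches hepatocytes. Foxo1AAA is a form of the transcription factor FOXO1 that the kinase AKT can no longer inactivate. The normal livers came from FVB mice, whereas the labels give no strain for the tumours and no age, promoter of the injected genes or number of animals. A p-value therefore measures the spread between these samples, which may share an animal.

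Class I molecules show peptides from inside a cell to CD8 T cells. The proteasome cuts proteins into peptides, and its subunits PSMB8, PSMB9 and PSMB10 replace PSMB5, PSMB6 and PSMB7 in the immunoproteasome that interferon gamma induces. TAP1 and TAP2 carry the peptides into the endoplasmic reticulum, tapasin (Tapbp) holds the empty heavy chain beside them, and beta-2 microglobulin (B2m) is the light chain of every finished class I molecule. Class II molecules show peptides from taken-up protein to CD4 T cells, are held closed by the invariant chain CD74 and are loaded with the help of H2-DM. NLRC5 and CIITA are the coactivators that switch on class I and class II genes. Hepatocytes normally carry class I and hardly any class II, which in liver is found on Kupffer cells, dendritic cells and B cells.

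The values are labelled as fragments per kilobase of gene and per M reads (FPKM, where M is 1e6), so levels of different genes are given per length. The reads behind them numbered 13.6 to 21.3 M per library. A gene was tested where it reached 1 FPKM in at least 3 of the 10 libraries, which 26 of the 48 members and 12439 genes in all did, and it was called at a limma adjusted p under 0.05 on log2(FPKM + 1). FPKM summed to 413812 to 444893 in Akt/Nras/Foxo1AAA tumours, 349619 to 381653 in Akt/Nras tumours, and 692010 to 743203 for normal livers. The direction of some changes therefore depended on the scaling. When every library was set to the same total (equal totals), the median log2 change of all genes was 0.47 in the Akt/Nras/Foxo1AAA comparison with normal liver, 0.70 in the Akt/Nras comparison with normal liver and -0.21 between tumour groups, where the deposited values gave -0.09, -0.07 and -0.01. Ratios of members within a library do not depend on it.

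Many genes differed from normal liver, so a call by itself sets no member apart. In the deposited values 26.8% of all tested genes were called higher and 36.5% lower in Akt/Nras/Foxo1AAA tumours than in normal liver, and 31.1% higher and 37.9% lower in Akt/Nras tumours against normal liver. With equal totals these shares became 61.0% and 13.5% in Akt/Nras/Foxo1AAA tumours, and 69.2% and 13.8% in Akt/Nras tumours. With libraries scaled by the median ratio over genes they were 33.6% and 28.8% in Akt/Nras/Foxo1AAA tumours, and 37.8% and 31.4% in Akt/Nras tumours. Against that background, the 19 tested members of the class I arm held 8 calls higher and 3 lower in Akt/Nras/Foxo1AAA tumours and 6 higher and 7 lower in Akt/Nras tumours. The 7 tested members of the class II arm held 2 calls higher in Akt/Nras/Foxo1AAA tumours and 3 higher in Akt/Nras tumours, and limma called 0 of them lower in either tumour group, also at an unadjusted p under 0.05 and with limma voom on the recovered reads. With equal totals the class I arm held 16 calls higher and 1 lower in Akt/Nras/Foxo1AAA tumours and 15 higher and 1 lower in Akt/Nras tumours, and all 7 of the class II arm were called higher in both. With the median ratio scaling the class I arm held 11 calls higher and 3 lower in Akt/Nras/Foxo1AAA tumours and 7 higher and 6 lower in Akt/Nras tumours. What differed between members was thus the order of their changes more than the number of calls.

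The promoters of the 4 most abundant heavy chains are shown first because H2-Q10 was lower in the tumours while the other 3 were higher. The sequences are those of RefSeq on GRCm38.p6, the C57BL/6J genome, from 250 bases before to 50 after the annotated start of transcription, and 37 of the 48 members have such an entry. All 4 genes lie on chromosome 17: H2-K1 at chr17:34000298-34000597 on the minus strand, and on the plus strand H2-D1 at chr17:35262844-35263143, H2-Q4 at chr17:35379367-35379666 and H2-Q10 at chr17:35469839-35470138. Each is written 5′ to 3′ on its gene's strand. Capitals mark matches, on either strand, to motifs of the class I promoter that were chosen with the sequences in view: GGGGATTCC, a site of the NF-kB type, TTTCACTTC, an interferon response core, TGACG, the core of a cyclic AMP response element, and CCAAT, which reads ATTGG on the other strand.
H2-K1: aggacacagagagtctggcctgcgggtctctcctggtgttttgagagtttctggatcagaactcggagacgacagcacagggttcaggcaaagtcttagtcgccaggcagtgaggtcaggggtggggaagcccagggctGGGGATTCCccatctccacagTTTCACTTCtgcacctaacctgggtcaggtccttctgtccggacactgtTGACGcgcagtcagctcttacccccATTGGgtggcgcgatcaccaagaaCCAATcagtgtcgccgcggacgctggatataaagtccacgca
H2-D1: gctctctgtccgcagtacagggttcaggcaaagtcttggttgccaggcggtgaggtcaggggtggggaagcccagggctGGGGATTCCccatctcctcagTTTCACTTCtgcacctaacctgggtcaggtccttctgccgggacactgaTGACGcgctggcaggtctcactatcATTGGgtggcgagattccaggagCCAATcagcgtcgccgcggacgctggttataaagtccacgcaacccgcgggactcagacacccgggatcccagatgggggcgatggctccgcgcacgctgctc
H2-Q4: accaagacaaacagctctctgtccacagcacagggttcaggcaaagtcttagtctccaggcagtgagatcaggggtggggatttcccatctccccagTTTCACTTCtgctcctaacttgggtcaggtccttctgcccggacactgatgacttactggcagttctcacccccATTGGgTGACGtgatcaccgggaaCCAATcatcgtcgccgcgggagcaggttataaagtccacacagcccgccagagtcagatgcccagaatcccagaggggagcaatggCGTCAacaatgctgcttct
H2-Q10: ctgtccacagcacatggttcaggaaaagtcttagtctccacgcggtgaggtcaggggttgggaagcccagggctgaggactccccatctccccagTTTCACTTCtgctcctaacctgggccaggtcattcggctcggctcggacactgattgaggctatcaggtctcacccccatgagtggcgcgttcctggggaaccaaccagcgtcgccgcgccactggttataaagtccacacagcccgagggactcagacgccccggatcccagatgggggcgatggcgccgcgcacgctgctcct
H2-K1 and H2-D1 held all 4 motifs in the same order. GGGGATTCC began 111 bases upstream of the start in H2-K1 and 171 in H2-D1, and TTTCACTTC began 90 and 150 bases upstream. A second annotated start of H2-K1 puts them 125 and 104 bases upstream. H2-Q4 lacked an exact GGGGATTCC, reading ggggatttccc ahead of TTTCACTTC, and held the other 3. Its TGACG matches lay elsewhere than in H2-K1 and H2-D1, between the 2 CCAAT matches and 31 bases past the start. H2-Q10 held only TTTCACTTC, 155 bases upstream. Among the other tested heavy chains with an entry, H2-Q7 held all 4 motifs, H2-Q6 all but TGACG and H2-M3 all but GGGGATTCC. H2-T22 held only TGACG and CCAAT, and H2-T23 only CCAAT. H2-Q6 and H2-T22 were not called against normal liver, and a link between motifs and levels was not tested. Of 32851 mouse promoters of this length, 0.25% held GGGGATTCC, 0.505% TTTCACTTC, 20.8% TGACG and 37.4% CCAAT. No match means only that these letters are not in this window of the C57BL/6J sequence, and FVB mice carry another H-2 haplotype (q in place of b).

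The classical class I heavy chains were higher in both tumour groups, while H2-Q10 was lower. H2-D1, a classical chain, stood at 803, 883 and 974 FPKM in Akt/Nras/Foxo1AAA tumours, at 817, 739 and 820 FPKM in Akt/Nras tumours, and at 525, 562, 502 and 544 FPKM in normal livers. Every tumour library lay above every normal liver. H2-D1 was 1.66-fold higher in Akt/Nras/Foxo1AAA tumours (log2 change 0.73, SE 0.10, limma's adjusted p = 7.89e-05), and 1.48-fold higher for Akt/Nras tumours (0.57, SE 0.10, limma's adjusted p = 0.000365) than in normal liver. H2-K1, the other classical chain, read 441, 483 and 459 FPKM in Akt/Nras/Foxo1AAA tumours, 331, 339 and 425 FPKM in Akt/Nras tumours, and 303, 295, 275 and 291 FPKM in normal livers. The groups did not overlap, although 2 of the Akt/Nras tumours lay close to normal liver. It was 1.58-fold higher in Akt/Nras/Foxo1AAA tumours (log2 change 0.66, SE 0.10, limma's adjusted p = 0.000227), and 1.25-fold higher for Akt/Nras tumours (0.32, SE 0.10, limma's adjusted p = 0.0177) than in normal liver, and the second call was lost without Akt/Nras tumour 3 (0.20, limma's adjusted p = 0.0789).

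H2-Q4, a chain of the Q region, showed the largest increase on the log2 scale among the heavy chains tested against normal liver in both tumour groups. It read 35.2, 45.3 and 47.1 FPKM in Akt/Nras/Foxo1AAA tumours, 40, 35.7 and 40.1 FPKM in Akt/Nras tumours, and 18.7, 17.6, 15.7 and 21.4 FPKM in normal livers. It was 2.32-fold higher in Akt/Nras/Foxo1AAA tumours (log2 change 1.17, SE 0.12, limma's adjusted p = 1.62e-05), and 2.10-fold higher for Akt/Nras tumours (1.04, SE 0.12, limma's adjusted p = 2.69e-05). H2-M3, which presents peptides that start with formyl-methionine, as those of bacteria and mitochondria do, averaged 4.25 ± 0.878 FPKM in Akt/Nras/Foxo1AAA tumours and 4.86 ± 1.02 FPKM in Akt/Nras tumours (SD, n = 3 each), against 2.21 ± 0.302 FPKM in normal liver (SD, n = 4). It was called higher in both comparisons with normal liver (limma's adjusted p = 0.00156 and 0.000327). H2-Q7, a gene of the Qa-2 antigen, averaged 1.66 ± 0.456 FPKM in Akt/Nras/Foxo1AAA tumours, 2.33 ± 0.439 FPKM in Akt/Nras tumours and 0.952 ± 0.192 FPKM in normal liver, and was also called higher in both (limma's adjusted p = 0.0205 and 0.00068). In Akt/Nras/Foxo1AAA tumours its call was lost without normal liver 3 or without tumour 1 or 3 (limma's adjusted p = 0.0531 to 0.0844). H2-Q6, the other Qa-2 gene, ranged from 0.766 to 3.49 FPKM in Akt/Nras/Foxo1AAA tumours, 0.728 to 2.25 FPKM in Akt/Nras tumours and 0.492 to 0.802 FPKM in normal livers, and was not called. Its high mean in each tumour group rested on 1 library.

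H2-Q10 ran the other way. It encodes a soluble class I chain that the liver secretes into the blood. It read 256, 201 and 126 FPKM in Akt/Nras/Foxo1AAA tumours, 78.2, 101 and 92.5 FPKM in Akt/Nras tumours, and 399, 473, 463 and 439 FPKM in normal livers. No 2 groups overlapped, with normal livers highest and Akt/Nras tumours lowest. It was 2.28-fold lower in Akt/Nras/Foxo1AAA tumours (log2 change -1.24, SE 0.20, limma's adjusted p = 0.000331) and 4.89-fold lower in Akt/Nras tumours (-2.28, SE 0.20, limma's adjusted p = 2.8e-06) than in normal liver. It was the heavy chain that was called lower under all 3 scalings in both comparisons, at -0.52 and -1.32 with equal totals. Hepatocyte marker genes fell with it: 6 of 6 (Alb, Ttr, Apoa1, Cyp2e1, Cps1 and Serpina1c) were called lower in each tumour group, and their summed level was 28788 to 40472 FPKM in Akt/Nras/Foxo1AAA tumours, 23909 to 26575 FPKM in Akt/Nras tumours and 73190 to 77806 FPKM in normal livers. Among all tested genes 36.5% were called lower in Akt/Nras/Foxo1AAA tumours and 37.9% in Akt/Nras tumours. In bulk tissue fewer cells of a type and less RNA per cell cannot be told apart, and the part of hepatocyte content in the level of H2-Q10 was not tested.

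**Figure D1:**
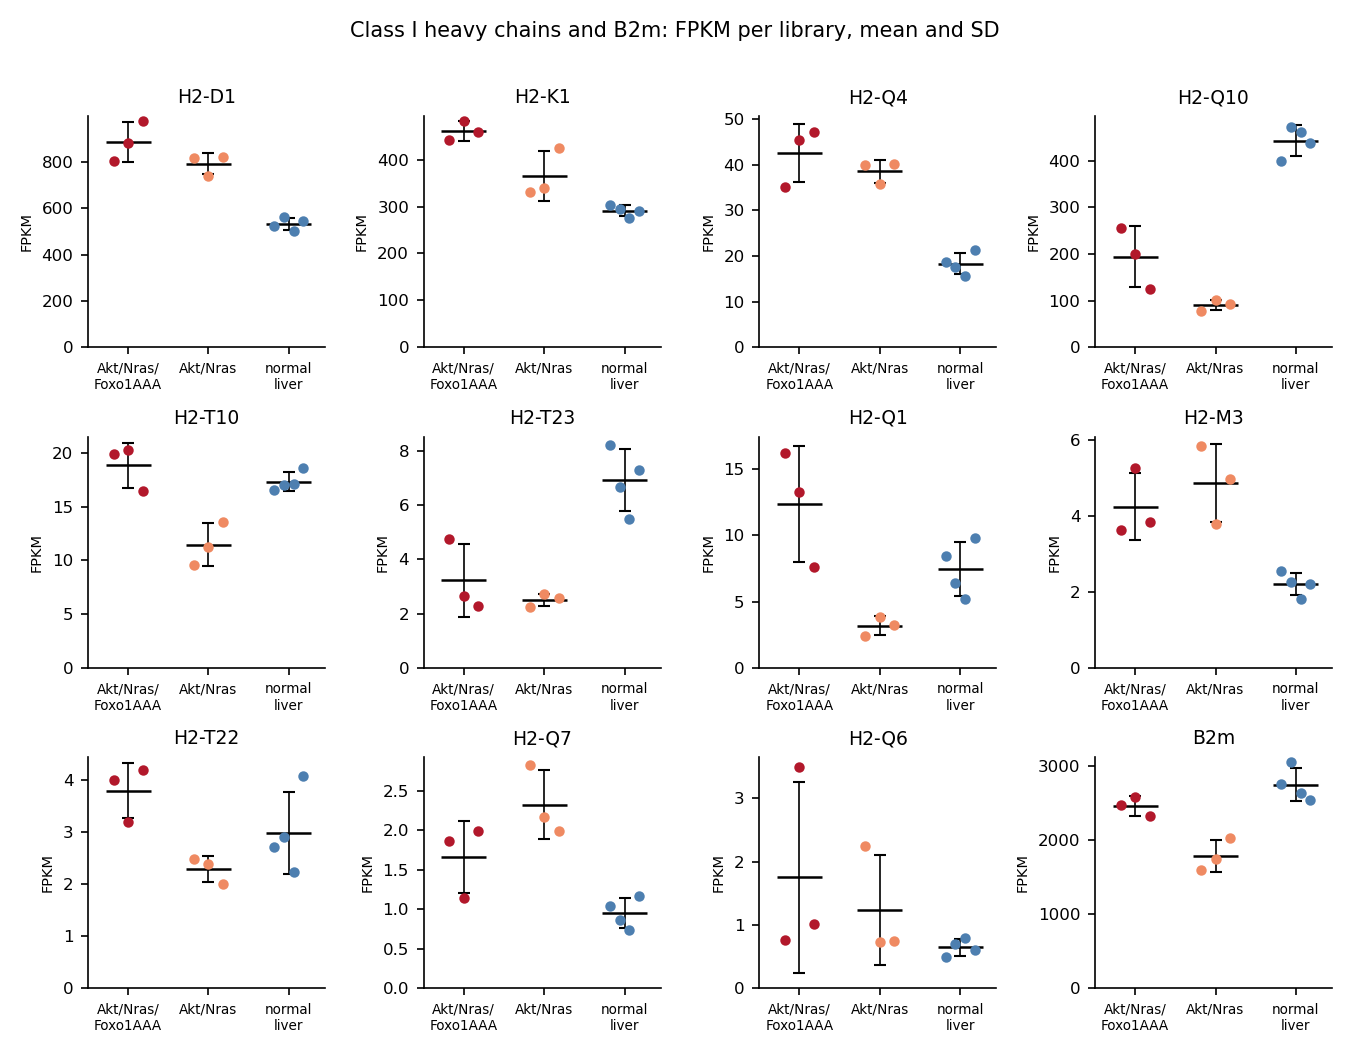
FPKM of the 11 tested class I heavy chains and B2m in each library (dots), with the mean (line) and SD (bars) of Akt/Nras/Foxo1AAA tumours (n = 3), Akt/Nras tumours (n = 3) and normal livers (n = 4); each vertical axis starts at 0. H2-D1, H2-K1 and H2-Q4 sit higher in every tumour than in every normal liver, and H2-Q10 sits lower.

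The remaining tested heavy chains were nonclassical genes of low level. H2-T23 encodes Qa-1, the ligand that engages the inhibitory receptor NKG2A on NK cells. It read 4.77, 2.63 and 2.28 FPKM in Akt/Nras/Foxo1AAA tumours, 2.25, 2.71 and 2.57 FPKM in Akt/Nras tumours, and 8.22, 6.67, 5.50 and 7.31 FPKM in normal livers. All tumours lay below all normal livers, and the gene was 2.15-fold lower in Akt/Nras/Foxo1AAA tumours (log2 change -0.94, SE 0.18, limma's adjusted p = 0.00113) and 2.76-fold lower in Akt/Nras tumours (-1.17, SE 0.18, limma's adjusted p = 0.000213). With equal totals neither was called, at -0.35 and -0.39. Relative to the median change of all genes H2-T23 was lower by either scaling, at -0.85 and -0.82 in Akt/Nras/Foxo1AAA tumours and at -1.10 and -1.09 in Akt/Nras tumours. H2-T10 and H2-T22 encode ligands of gamma delta T cells. H2-T10 fell to 11.5 ± 1.99 FPKM in Akt/Nras tumours (SD, n = 3), against 17.3 ± 0.849 FPKM in normal liver (SD, n = 4; log2 change -0.57, SE 0.11, limma's adjusted p = 0.00111, but 0.34 with equal totals). In Akt/Nras/Foxo1AAA tumours it averaged 18.8 ± 2.11 FPKM (SD, n = 3) and was not called against normal liver. H2-T22 averaged 3.80 ± 0.533 FPKM in Akt/Nras/Foxo1AAA tumours, 2.3 ± 0.256 FPKM in Akt/Nras tumours and 2.99 ± 0.786 FPKM in normal liver, and was called against normal liver in neither.

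The make-up of the class I heavy chain pool, which no scaling between libraries changes, separated normal liver from the tumours. These shares were chosen after the values were seen and carry no test. H2-Q10 made up 7.64 to 16.1% of the summed heavy chain FPKM in Akt/Nras/Foxo1AAA tumours and 6.03 to 8.14% in Akt/Nras tumours, against 31.0 to 35.9% in normal livers. H2-D1 took 50.6 to 59.2% in Akt/Nras/Foxo1AAA tumours and 58.2 to 63.0% in Akt/Nras tumours, against 38.9 to 40.8% in normal livers. H2-K1 took 27.8 to 29.0%, 25.5 to 30.2% and 21.3 to 23.5% in the same groups, and all other heavy chains together took 5.23 to 5.83%, 5.05 to 5.40% and 3.91 to 4.97%. Put as a ratio, H2-D1 stood at 3.14 to 7.75 times H2-Q10 in Akt/Nras/Foxo1AAA tumours and at 7.31 to 10.4 times in Akt/Nras tumours, against 1.08 to 1.32 times in normal livers. The ratio of H2-D1 to H2-K1 differed far less, at 1.82 to 2.12 in Akt/Nras/Foxo1AAA tumours, 1.93 to 2.47 in Akt/Nras tumours, and 1.73 to 1.90 for normal livers. The summed heavy chains came to 1588 to 1664 FPKM in Akt/Nras/Foxo1AAA tumours, 1242 to 1408 FPKM in Akt/Nras tumours and 1286 to 1388 FPKM in normal livers, so the Akt/Nras tumours overlapped normal liver in total while differing in which chains made it up.

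**Figure D2:**
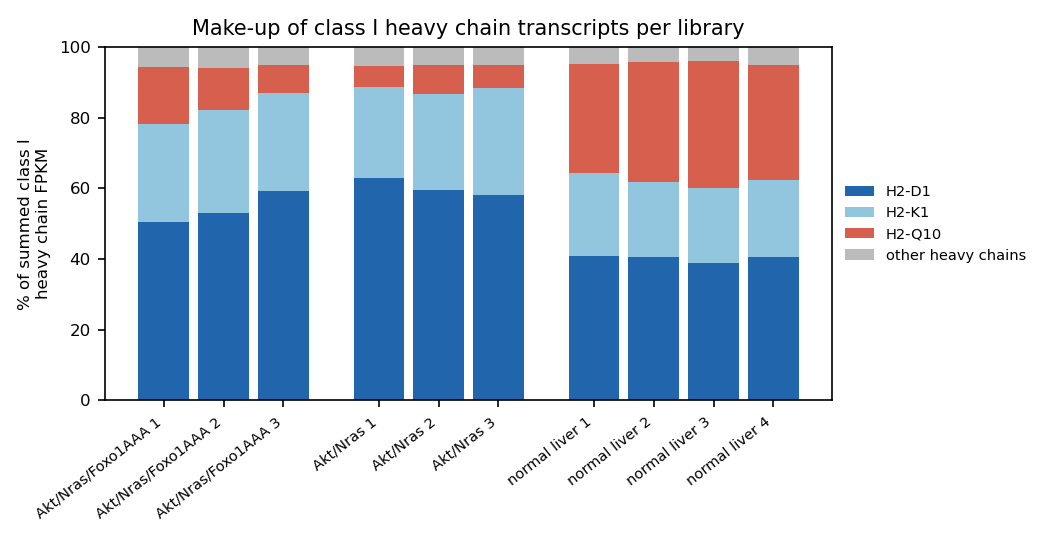
Percent of the summed class I heavy chain FPKM that H2-D1, H2-K1, H2-Q10 and all other heavy chains took in each library (stacked bars, adding to 100%). H2-Q10 takes 31.0 to 35.9% in the 4 normal livers and no more than 16.1% in any of the 6 tumours.

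The heavy chains resemble each other, and the reference differs in haplotype from FVB. Of all 100-base stretches in the GENCODE M21 transcripts of a gene, 8.01% of those of H2-Q10 also occur in transcripts of another gene, as do 3.59% for H2-D1, 0.957% for H2-K1, 2.16% for H2-Q4, 8.05% for H2-Q1, 12.0% for H2-Q7 and 0 for H2-M3. How the authors' counting treated such reads is not given in the sources used here, and the part of shared reads or of haplotype in these levels was not tested. A difference of strain between tumours and normal livers cannot be told apart from the tumour itself.

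B2m, the light chain, was the most abundant member per length. It read 2477, 2586 and 2324 FPKM in Akt/Nras/Foxo1AAA tumours, 1598, 1746 and 2026 FPKM in Akt/Nras tumours, and 2766, 3051, 2633 and 2548 FPKM in normal livers. The Akt/Nras tumours lay below both other groups, whereas the Akt/Nras/Foxo1AAA tumours overlapped normal liver. In Akt/Nras tumours B2m was 1.54-fold lower than in normal liver (change of -0.62 on the log2 scale, SE 0.12, limma's adjusted p = 0.000733), but 0.35 higher on the log2 scale with equal totals. Relative to the median change of all genes it was lower by either scaling there, at -0.55 in the deposited values and -0.35 with equal totals. In Akt/Nras/Foxo1AAA tumours the change from normal liver was -0.16 (SE 0.12, limma's adjusted p = 0.262). Within a library, B2m stood at 1.41 to 1.56 times the summed heavy chains in Akt/Nras/Foxo1AAA tumours and 1.23 to 1.44 times in Akt/Nras tumours, against 1.90 to 2.20 times in normal livers. Both tumour groups lay below normal liver in this ratio without overlap.

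B2m also pairs with class I-like proteins encoded outside the H2 complex, and 3 of the 4 tested were called lower in each of the tumour groups. Among all tested genes 36.5% were called lower in Akt/Nras/Foxo1AAA tumours and 37.9% in Akt/Nras tumours. With equal totals 2 of the 4 were called higher and 1 lower in each tumour group. Fcgrt, the Fc receptor that rescues albumin and IgG from breakdown, read 61.8 to 80.5 FPKM in Akt/Nras/Foxo1AAA tumours and 43.8 to 57.1 FPKM in Akt/Nras tumours, against 174 to 190 FPKM in normal livers. Its log2 change was -1.34 (SE 0.11, limma's adjusted p = 2.99e-06) in Akt/Nras/Foxo1AAA tumours and -1.81 (SE 0.11, limma's adjusted p = 2.16e-07) in Akt/Nras tumours. Cd1d1, which presents lipids to NKT cells, read 64.9 to 94.3 FPKM in Akt/Nras/Foxo1AAA tumours and 45.0 to 57.1 FPKM in Akt/Nras tumours, against 114 to 121 FPKM in normal livers. It was called lower in both, but with equal totals its change was 0.14 in Akt/Nras/Foxo1AAA tumours and -0.23 in Akt/Nras tumours. Hfe, the haemochromatosis protein that regulates hepcidin, read 10.1 to 11.3, 8.43 to 9.61 and 12.0 to 14.7 FPKM in the same order and was lower in both (log2 change -0.35 and -0.55), but 0.32 and 0.34 higher with equal totals. Mr1, which presents vitamin B metabolites to MAIT cells, was called higher in Akt/Nras tumours alone, at 2.73 to 4.02 FPKM against 1.52 to 2.65 FPKM in normal livers (log2 change 0.60, SE 0.15, limma's adjusted p = 0.00369), and read 2.31 to 2.77 FPKM in Akt/Nras/Foxo1AAA tumours (0.34 against normal liver, limma's adjusted p = 0.067).

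**Figure D3:**
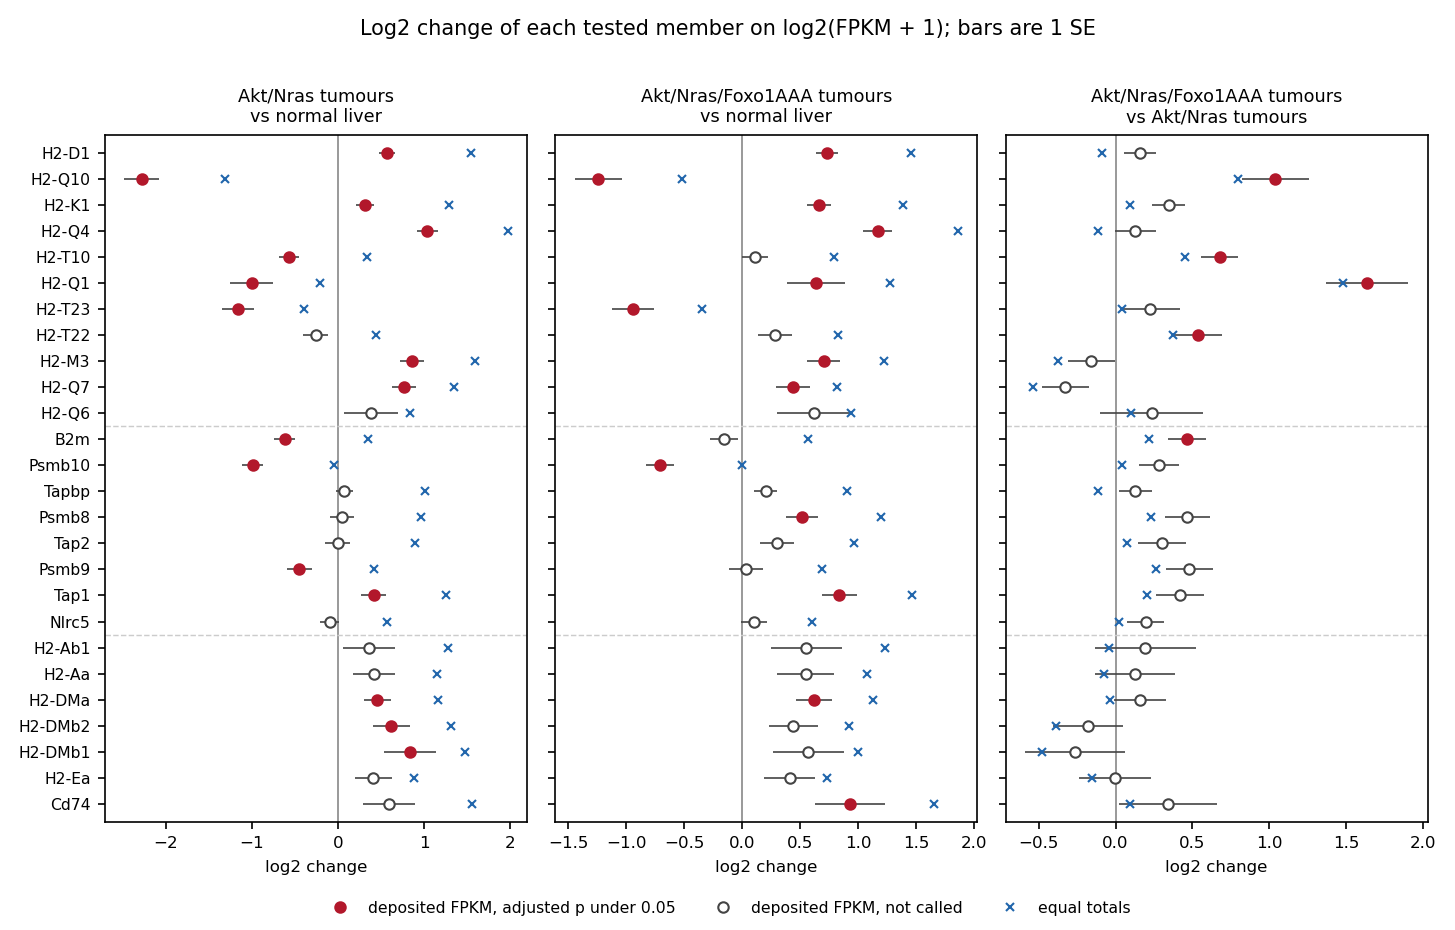
Log2 change on log2(FPKM + 1) of each tested member in Akt/Nras tumours and then in Akt/Nras/Foxo1AAA tumours, each against normal liver, with the contrast of Akt/Nras/Foxo1AAA against Akt/Nras tumours on the right; circles are the deposited values with 1 SE, filled at a limma adjusted p under 0.05, crosses are equal totals, and dashed lines part heavy chains, class I machinery and class II genes. H2-Q10 is lowest in both comparisons with normal liver, at -2.28 and -1.24, and equal totals shift nearly every member to the right there.

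The genes of peptide supply did not move together. Of the 8 members of the class I machinery, B2m included, 2 were called higher and 1 lower in Akt/Nras/Foxo1AAA tumours, and 1 higher and 3 lower in Akt/Nras tumours, against normal liver. Their median log2 change was 0.15 and -0.05, against -0.09 and -0.07 over all genes tested. Tap1, a subunit of the peptide transporter, read 10.7, 10.9 and 10.4 FPKM in Akt/Nras/Foxo1AAA tumours, 6.88, 7.84 and 8.47 FPKM in Akt/Nras tumours, and 6.46, 5.27, 3.91 and 6.90 FPKM in normal livers. The Akt/Nras/Foxo1AAA tumours stood above all others, and 1 Akt/Nras tumour fell within the range of normal livers. Tap1 was 1.89-fold higher in Akt/Nras/Foxo1AAA tumours (log2 change 0.84, SE 0.15, limma's adjusted p = 0.000564), and 1.37-fold higher for Akt/Nras tumours (0.42, SE 0.15, limma's adjusted p = 0.0274) than in normal liver. The second call was lost without normal liver 2 or without Akt/Nras tumour 2 or 3 (limma's adjusted p = 0.0578 to 0.0964). Tap2, the partner subunit, averaged 14.4 ± 2.17 FPKM in Akt/Nras/Foxo1AAA tumours, 11.6 ± 2.88 FPKM in Akt/Nras tumours and 11.4 ± 0.880 FPKM in normal liver and was called in neither in the deposited values. With the median ratio scaling it was called higher in Akt/Nras/Foxo1AAA tumours (limma's adjusted p = 0.0195), and with equal totals in both tumour groups.

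Psmb10 was the immunoproteasome subunit called lower in both tumour groups. It read 29.2, 35.1 and 28.3 FPKM in Akt/Nras/Foxo1AAA tumours, 23.1, 22.2 and 30.9 FPKM in Akt/Nras tumours, and 51.2, 52.3, 46.9 and 53.2 FPKM in normal livers, with no tumour within the range of normal livers. It was 1.65-fold lower in Akt/Nras/Foxo1AAA tumours (log2 change -0.71, SE 0.12, limma's adjusted p = 0.000466) and 2.01-fold lower in Akt/Nras tumours (-0.99, SE 0.12, limma's adjusted p = 3.25e-05), but not called with equal totals (limma's adjusted p = 0.984 and 0.71). Psmb8 averaged 24.1 ± 3.57 FPKM in Akt/Nras/Foxo1AAA tumours (SD, n = 3), against 16.6 ± 1.92 FPKM in normal liver (SD, n = 4), and was called higher there (log2 change 0.51, SE 0.14, limma's adjusted p = 0.00794). In Akt/Nras tumours it averaged 17.2 ± 3.15 FPKM and was not called. Psmb9 averaged 10.7 ± 1.85 FPKM in Akt/Nras/Foxo1AAA tumours, 7.38 ± 1.12 FPKM in Akt/Nras tumours and 10.4 ± 1.53 FPKM in normal liver. Its level was called lower for Akt/Nras tumours (log2 change -0.45, SE 0.14, limma's adjusted p = 0.0171, but 0.42 with equal totals), a call that was lost without Akt/Nras tumour 1 (limma's adjusted p = 0.0685). Tapbp, at 28.7 to 38.7 FPKM over all libraries, and the coactivator Nlrc5, at 1.75 to 2.87 FPKM, were not called in any comparison of the deposited values. With equal totals both were called higher than normal liver in each tumour group. Tapbp was also called higher with the median ratio scaling, in Akt/Nras/Foxo1AAA and Akt/Nras tumours (limma's adjusted p = 0.00785 and 0.0499).

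Each inducible subunit was also set against the standard subunit that it replaces. Psmb5, Psmb6 and Psmb7 were called lower than in normal liver in both tumour groups (log2 change -0.42, -0.28 and -0.39 in Akt/Nras/Foxo1AAA tumours and -0.29, -0.36 and -0.57 in Akt/Nras tumours), and all 3 were higher with equal totals (0.29, 0.43 and 0.31, and 0.67, 0.60 and 0.36). Psmb8 stood at 0.380 to 0.540 of Psmb5 in Akt/Nras/Foxo1AAA tumours and at 0.258 to 0.385 in Akt/Nras tumours, against 0.198 to 0.277 in normal livers. The Akt/Nras/Foxo1AAA tumours were above normal liver without overlap, and the Akt/Nras tumours overlapped both. Psmb10 stood at 1.40 to 1.76 times Psmb7 in Akt/Nras/Foxo1AAA tumours and 1.22 to 1.76 times in Akt/Nras tumours, against 1.80 to 2.02 times in normal livers, so all tumours lay below. Psmb9 over Psmb6 overlapped between all groups, at 0.0946 to 0.138, 0.0757 to 0.0966 and 0.0740 to 0.108. The 3 inducible subunits thus took 3 different courses against their partners.

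Tap1 and Psmb9 are neighbours transcribed away from each other. Their annotated starts lie 226 bases apart on GRCm38.p6, so that 275 bases of their promoter windows are the same. Their ratio nonetheless differed between groups: Tap1 stood at 0.909 to 1.21 times Psmb9 in Akt/Nras/Foxo1AAA tumours and 0.985 to 1.10 times in Akt/Nras tumours, against 0.458 to 0.599 times in normal livers, with no overlap. This ratio was chosen after the values were seen. Tap1 over Tap2 was 0.645 to 0.841, 0.570 to 0.747 and 0.368 to 0.644 in the same order, and the Akt/Nras tumours overlapped normal liver.

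**Figure D4:**
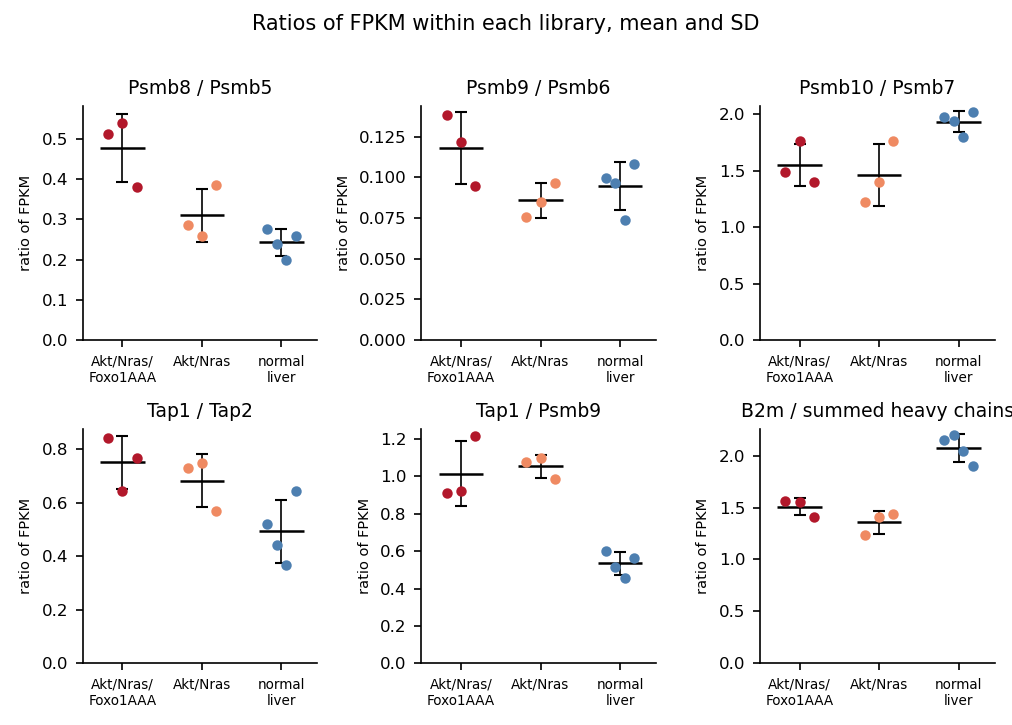
Ratios of FPKM within each library (dots) with the mean (line) and SD (bars) for Akt/Nras/Foxo1AAA tumours (n = 3), Akt/Nras tumours (n = 3) and normal livers (n = 4); a ratio does not depend on how libraries are scaled. Tap1 over Psmb9 is 0.909 or more in the 6 tumours and 0.599 or less in the normal livers, and B2m over the summed heavy chains is 1.56 or less in the tumours and 1.90 or more in the normal livers.

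The tested class II genes were higher in mean in both tumour groups, with wide spread between libraries. Cd74, the invariant chain, read 140, 188 and 207 FPKM in Akt/Nras/Foxo1AAA tumours, 95.2, 144 and 194 FPKM in Akt/Nras tumours, and 109, 96.5, 54.1 and 125 FPKM in normal livers. The Akt/Nras/Foxo1AAA tumours lay above all normal livers, and the Akt/Nras tumours spanned both ranges. Cd74 was 1.86-fold higher in Akt/Nras/Foxo1AAA tumours than in normal liver (change of 0.93 on the log2 scale, SE 0.30, limma's adjusted p = 0.0195), a call that was lost without tumour 2 or 3 (limma's adjusted p = 0.0593 and 0.0692). In Akt/Nras tumours the change was 0.59 (SE 0.30, limma's adjusted p = 0.104) and was called without Akt/Nras tumour 1 (limma's adjusted p = 0.0314). H2-Ab1, the beta chain of the class II molecule A, read 16.2, 22.7 and 27.6 FPKM in Akt/Nras/Foxo1AAA tumours, 14.4, 19 and 24.3 FPKM in Akt/Nras tumours, and 17.5, 15.1, 7.57 and 21.3 FPKM in normal livers, and was called in neither (limma's adjusted p = 0.14 and 0.319). H2-Aa, its alpha chain, read 3.28 to 5.36, 2.51 to 5.41 and 1.38 to 3.17 FPKM and was likewise not called (limma's adjusted p = 0.073 and 0.148).

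The peptide-loading chains of H2-DM gave most of the class II calls. H2-DMa averaged 3.85 ± 0.907 FPKM in Akt/Nras/Foxo1AAA tumours and 3.29 ± 0.267 FPKM in Akt/Nras tumours (SD, n = 3 each), against 2.16 ± 0.533 FPKM in normal liver (SD, n = 4). It was called higher in both (log2 change 0.62, SE 0.16, limma's adjusted p = 0.00592 and 0.46, SE 0.16, limma's adjusted p = 0.0249). H2-DMb1 and H2-DMb2, its beta chains, averaged 2.5 ± 0.638 and 3.01 ± 0.929 FPKM in Akt/Nras/Foxo1AAA tumours, 3.18 ± 0.482 and 3.51 ± 0.726 FPKM in Akt/Nras tumours, and 1.51 ± 1.01 and 1.98 ± 0.756 FPKM in normal liver. Both were called higher in Akt/Nras tumours alone (limma's adjusted p = 0.031 and 0.0232). The beta chain genes share 11.3% and 10.3% of their 100-base stretches with other genes, and 22.65% and 24.76% of their 50-base stretches. In Akt/Nras tumours each of these 3 H2-DM calls was lost in 3 or 4 of the 10 fits that left out a library, each time without normal liver 2 and without Akt/Nras tumour 3. H2-DMa and H2-DMb2 also lost it without normal liver 3, H2-DMa without Akt/Nras tumour 2 and H2-DMb1 without Akt/Nras tumour 1 (limma adjusted p over the 10 fits 0.0133 to 0.0726 for H2-DMa, 0.00972 to 0.0890 for H2-DMb1 and 0.00677 to 0.0943 for H2-DMb2). H2-Ea, at 0.304 to 2.04 FPKM, rested on 2 to 21 reads per library and was not called.

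**Figure D5:**
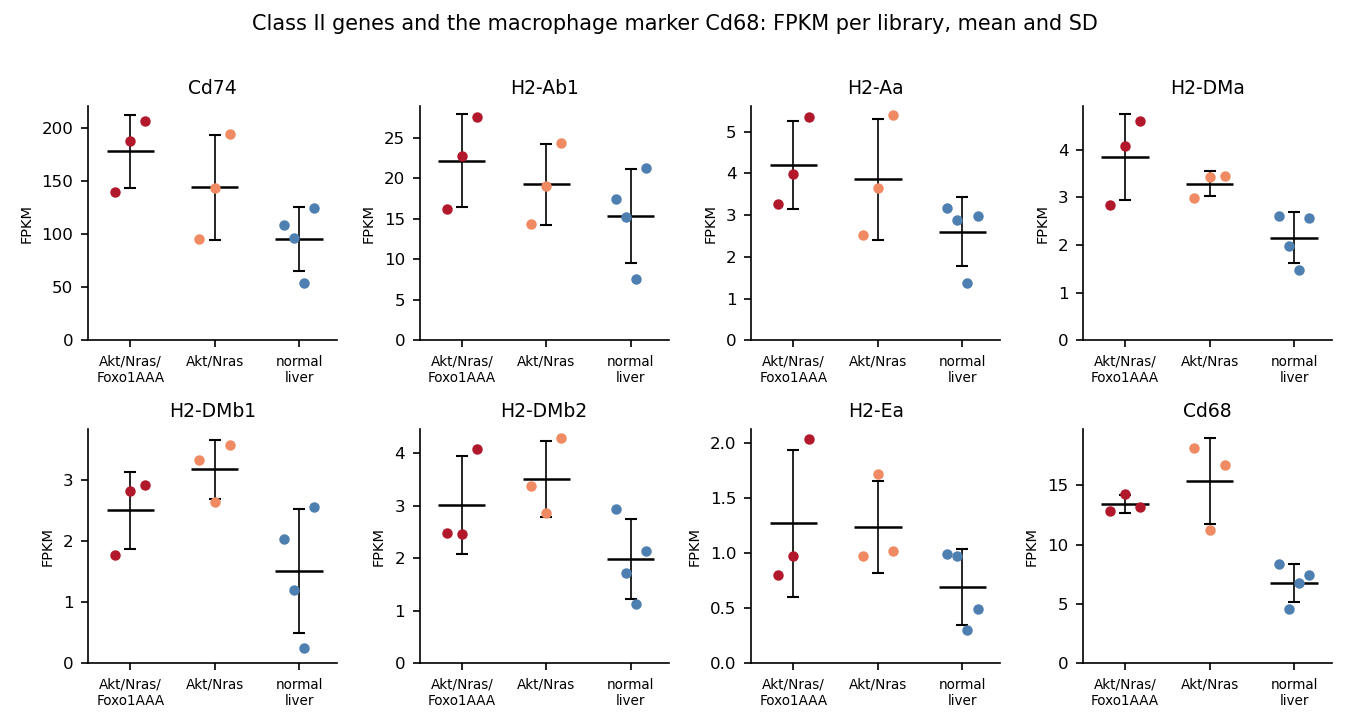
FPKM of the 7 tested class II genes and of the macrophage marker Cd68 in each library (dots), with the mean (line) and SD (bars) of Akt/Nras/Foxo1AAA tumours (n = 3), Akt/Nras tumours (n = 3) and normal livers (n = 4); each vertical axis starts at 0. The lowest normal liver dot is replicate 3 in all 7 class II panels.

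Class II levels are set beside Cd74 and beside macrophage genes. Within a library the summed class II chains stood at 0.204 to 0.231 of Cd74 in Akt/Nras/Foxo1AAA tumours, 0.224 to 0.299 in Akt/Nras tumours, and 0.238 to 0.273 for normal livers. Normal liver 3 was the lowest normal liver in every tested class II gene, and its summed B cell markers were 0.482 FPKM, against 1.52 to 1.87 FPKM in the other normal livers. Cd68, a macrophage marker, read 12.8 to 14.3 FPKM in Akt/Nras/Foxo1AAA tumours and 11.2 to 18.1 FPKM in Akt/Nras tumours, against 4.61 to 8.36 FPKM in normal livers, and was called higher in both (limma's adjusted p = 0.0015 and 0.000426). Relative to it the summed class II chains overlapped between all groups, at 2.24 to 3.65, 1.57 to 3.07 and 1.91 to 5.33 times. Cd74 over Csf1r, the receptor of macrophage growth factor, was 9.85 to 14.0, 9.67 to 13.6 and 12.1 to 14.8. Of the 10 macrophage and Kupffer cell markers, 8 were tested: 3 (Cd68, Csf1r and Adgre1) were called higher in both tumour groups, and Clec4f and Timd4, which mark resident Kupffer cells, were called lower in Akt/Nras tumours. In neither tumour group was any of the 8 called lower with equal totals. Among all tested genes 26.8% were called higher in Akt/Nras/Foxo1AAA tumours and 31.1% in Akt/Nras tumours in the deposited values. The summed level of the 10 was 92.5 to 113 FPKM in Akt/Nras/Foxo1AAA tumours, 56.1 to 94.8 FPKM in Akt/Nras tumours and 67.6 to 114 FPKM in normal livers. Clec4f alone gave 38.9 to 53.4, 10.7 to 35.2 and 37.3 to 65.7 FPKM of it in the same order, so the sum largely follows this 1 gene. Of 8 dendritic cell markers only Itgax was high enough to test, and it was called higher in both (0.562 to 1.63 and 1.42 to 1.79 FPKM, against 0.0473 to 0.178 FPKM in normal livers). No B cell marker exceeded 1.04 FPKM and no T or NK cell marker exceeded 1.12 FPKM in any library. Ptprc, a marker of all leukocytes, was too low to test. Normal livers gave 0.294, 0.335, 0.262 and 0.397 FPKM for it. Akt/Nras/Foxo1AAA tumours gave 0.596, 0.749 and 0.680 FPKM, and Akt/Nras tumours 0.581, 0.648 and 0.966 FPKM. All tumours thus lay above all normal livers. The mean of the summed class II chains was 1.53-fold and 1.41-fold that of normal liver in the same order, with overlap. The part of leukocyte, macrophage or dendritic cell content in the class II changes was not tested.

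Between the tumour groups 7.93% of all tested genes were called higher and 4.13% lower in Akt/Nras/Foxo1AAA than in Akt/Nras tumours, or 5.27% and 26.0% with equal totals, and 8.01% and 4.41% with the median ratio scaling. Of the 19 tested members of the class I arm, 5 were called higher and 0 lower by limma (0 also at an unadjusted p under 0.05, and 0 with limma voom). These were H2-Q1, H2-Q10, H2-T10, H2-T22 and B2m. With equal totals 3 were called higher and H2-Q7 was called lower (-0.54, limma's adjusted p = 0.0358). Of the 7 of the class II arm, 0 were called in either direction, with 0 also at an unadjusted p under 0.05 and 0 with limma voom. H2-Q1, a chain of the Q region, read 16.2, 13.2 and 7.64 FPKM in Akt/Nras/Foxo1AAA tumours, against 2.42, 3.86 and 3.22 FPKM in Akt/Nras tumours, and the groups did not overlap. It was 3.91-fold higher (log2 change 1.64, SE 0.27, limma's adjusted p = 0.00708). Normal livers, at 8.45, 6.39, 5.19 and 9.76 FPKM, lay between in mean, but Akt/Nras/Foxo1AAA tumour 3 fell within their range. H2-Q1 was called higher than normal liver in Akt/Nras/Foxo1AAA tumours (0.64, SE 0.25, limma's adjusted p = 0.0458) and lower in Akt/Nras tumours (-1.0, SE 0.25, limma's adjusted p = 0.00447). The call against normal liver in Akt/Nras/Foxo1AAA tumours was lost in 7 of the 10 fits that left out a library, and held without normal liver 4, Akt/Nras tumour 1 or Akt/Nras/Foxo1AAA tumour 3 (limma adjusted p over the 10 fits 0.00545 to 0.185).

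H2-Q10 was 2.14-fold higher in Akt/Nras/Foxo1AAA than in Akt/Nras tumours, with the values given above (log2 change 1.04, SE 0.22, limma's adjusted p = 0.015), and the call was lost without Akt/Nras/Foxo1AAA tumour 2 (limma's adjusted p = 0.0574). H2-T10 read 19.9, 20.3 and 16.4 FPKM in Akt/Nras/Foxo1AAA tumours, against 9.6, 11.2 and 13.6 FPKM in Akt/Nras tumours. It was 1.64-fold higher (log2 change 0.68, SE 0.12, limma's adjusted p = 0.00959). The calls of H2-Q1 and H2-T10 held in all 10 fits that left out a library, and those of H2-Q1, H2-Q10 and H2-T10 held with equal totals (log2 change 1.48, 0.80 and 0.45). B2m was 1.38-fold higher (0.47, SE 0.13, limma's adjusted p = 0.0385), but its call held only without normal liver 2, Akt/Nras tumour 3 or Akt/Nras/Foxo1AAA tumour 3 (limma adjusted p over the 10 fits 0.0318 to 0.127). H2-T22 was 1.65-fold higher (0.54, SE 0.16, limma's adjusted p = 0.0498), and its call held only without normal liver 3 or 4 (0.0275 to 0.151). With the 6 tumour libraries fitted alone, 0 of these 5 were called (limma's adjusted p = 0.0522 to 0.131). H2-K1, Psmb8, Psmb9 and Tap1 were 1.26- to 1.45-fold higher in mean but missed the threshold (limma's adjusted p = 0.0669 to 0.108), and H2-D1 and H2-Q4 changed by 0.16 and 0.13 on the log2 scale (-0.09 and -0.11 with equal totals). Hepatocyte markers moved with these calls: 5 of 6 were called higher in Akt/Nras/Foxo1AAA than in Akt/Nras tumours, and the part of hepatocyte content was not tested.

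The interferon gamma pathway, which induces most of these genes, held 12 tested genes of 16. Against normal liver 8 were called higher and 2 lower in Akt/Nras/Foxo1AAA tumours, and 5 higher and 2 lower in Akt/Nras tumours, with a median log2 change of 0.44 and -0.07. Over all tested genes 26.8% and 31.1% were called higher, and 36.5% and 37.9% lower. The counts became 10 and 8 higher, and 0 lower in each, with equal totals. Between the tumour groups 1 was called in each direction. The receptor chain Ifngr1 rose most in both, to 21.7 to 25.6 FPKM in Akt/Nras/Foxo1AAA tumours and 29.3 to 43.6 FPKM in Akt/Nras tumours, against 6.46 to 8.37 FPKM in normal livers (log2 change 1.5, SE 0.13, limma's adjusted p = 4.69e-06 and 2.06, SE 0.13, limma's adjusted p = 3.03e-07). It was the gene called lower between the tumour groups (-0.56, limma's adjusted p = 0.0313). Ifngr2, the other chain, was also higher in both (1.10 and 1.22). Irf2, a repressor of interferon-responsive genes, was lower in both (-0.61 and -0.81, but 0.03 and 0.04 with equal totals), as was Gbp7, an interferon-induced GTPase (-0.51 and -0.80). Gbp2, another such GTPase, was called higher in Akt/Nras/Foxo1AAA tumours than in either other group, at 2.91 to 3.23 FPKM, against 1.06 to 1.85 FPKM in Akt/Nras tumours and 1.45 to 2.84 FPKM in normal livers (limma's adjusted p = 0.0288 and 0.0348). Irf1, a transcription factor that acts on class I promoters, was not called in any comparison of the deposited values, at 6.76 to 9.85 FPKM in Akt/Nras/Foxo1AAA tumours, 4.48 to 6.51 FPKM in Akt/Nras tumours, and 6.28 to 9.23 FPKM in normal livers. Ifng itself did not exceed 0.258 FPKM and was listed at 0 in all 6 tumours.

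Of 17 companions of class I loading and trimming, limma called 0 higher and 6 lower in Akt/Nras/Foxo1AAA tumours against normal liver (1 higher at an unadjusted p under 0.05), and 4 higher and 6 lower in Akt/Nras tumours. Over all tested genes 26.8% and 31.1% were called higher, and 36.5% and 37.9% lower. The counts turned round with equal totals, to 14 higher and 0 lower in Akt/Nras/Foxo1AAA tumours and 16 higher and 0 lower in Akt/Nras tumours. All tested genes then had 61.0% and 69.2% called higher. Erap1, the aminopeptidase that trims peptides in the endoplasmic reticulum, fell most, to 8.72 to 9.06 FPKM in Akt/Nras/Foxo1AAA tumours and 7.18 to 8.46 FPKM in Akt/Nras tumours, against 15.1 to 16.7 FPKM in normal livers (log2 change -0.76 and -0.96). With equal totals its changes were -0.10 and -0.07. The proteasome activator Psme1 fell by 0.52 and 0.51 on the log2 scale but was 0.20 and 0.45 higher with equal totals, and Psme2, the other activator subunit, was not called. Sec61a1, a translocon subunit, and Thop1, a peptidase that destroys peptides in the cytosol, were the 2 largest increases called in Akt/Nras tumours (0.37 and 0.40). Between the tumour groups 0 of 17 were called by limma (3 higher and 2 lower at an unadjusted p under 0.05), and Calr, the most abundant, changed by 0.01. The chaperones Calr, Canx and Pdia3 changed by no more than 0.07 in size on the log2 scale against normal liver in either tumour group, but were 0.65 to 1.01 higher with equal totals.

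Of 14 tested companions of the class II pathway, 5 were called higher and 4 lower in Akt/Nras/Foxo1AAA tumours, and 3 higher and 4 lower in Akt/Nras tumours, against normal liver. Over all tested genes 26.8% and 31.1% were called higher, and 36.5% and 37.9% lower. The counts became 11 higher and 0 lower in each tumour group with equal totals. In the deposited values the increases were led by lysosomal proteases. Legumain (Lgmn) reached 88.0 to 147 FPKM in Akt/Nras/Foxo1AAA tumours and 118 to 171 FPKM in Akt/Nras tumours, against 33.7 to 37.1 FPKM in normal livers (log2 change 1.65, SE 0.17, limma's adjusted p = 1.19e-05 and 2.0, SE 0.17, limma's adjusted p = 1.81e-06). Cathepsin S (Ctss), which cuts the invariant chain, reached 43.9 to 54.0 FPKM and 51.0 to 57.9 FPKM, against 13.9 to 25.2 FPKM in normal livers (1.33 and 1.44). Marchf8, a ubiquitin ligase, and Nfyb, a subunit of the factor that binds CCAAT, fell most (-0.72 and -0.54 in Akt/Nras/Foxo1AAA tumours, -0.96 and -0.66 in Akt/Nras tumours). With equal totals Marchf8 stood at -0.04 and -0.05 and Nfyb at 0.08 and 0.17. Rfx5, a subunit of the factor that NLRC5 and CIITA join at the promoter, was not called in any comparison of the deposited values, at 0.913 to 1.78 FPKM over all libraries. Cathepsin B (Ctsb) was the companion called between the tumour groups, at 174 to 193 FPKM in Akt/Nras/Foxo1AAA and 123 to 160 FPKM in Akt/Nras tumours (0.44, limma's adjusted p = 0.0278).

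The other 22 members were too low to test. H2-T24 reached at most 1.02 FPKM, H2-Eb1 1.13, H2-Q2 1.37, H2-M10.6 0.951, H2-Bl 0.729, H2-Oa 0.597, the coactivator Ciita 0.584, H2-Q5 0.560, H2-M2 0.361 and H2-Ob 0.246. H2-Ke6, H2-Eb2, H2-M5 and H2-T3 did not exceed 0.0685 FPKM. The remaining 8 (H2-M1, H2-M9, H2-M10.1, H2-M10.2, H2-M10.3, H2-M10.4, H2-M10.5 and H2-M11) were listed at 0 in all libraries. Ciita read 0.312 to 0.477 FPKM in Akt/Nras/Foxo1AAA tumours, 0.274 to 0.584 FPKM in Akt/Nras tumours and 0.142 to 0.345 FPKM in normal livers. H2-M10.6 was listed at 0 in all 6 tumours and at 0.0607, 0.951, 0.520 and 0.403 FPKM in normal livers.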

How the data were processed

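The authors deposited 1 table of FPKM values (fragments per kilobase and per M reads) in which, per the file headers, each column is a library, and also the gene length behind them, a value in bases. The submitters' processing notes list GRCm38 as build and FastQC 0.11.7, without a role; aligner, counter and annotation were not given in the sources used here. Per the labels' protocols, libraries came from total RNA by polyA capture or rRNA removal, without saying which, so strandedness is unknown. FPKM times gene length gave whole reads, within 0.02 of a read, for 100% of values above 0. The number each library was divided by was 0.875 to 0.928 of its reads in Akt/Nras/Foxo1AAA tumours, 1.0 to 1.06 for Akt/Nras tumours, and 0.629 to 0.668 for normal livers.

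All 10 libraries entered 1 limma 3.58.1 fit (R 4.3.3; a mean per group, a variance trend, two-sided tests) on log2(FPKM + 1), with Benjamini-Hochberg adjustment over the 12439 tested genes. On that scale log2 changes understate changes of low genes; folds are ratios of mean FPKM. Every member is named. Of each pathway list, up to 2 called genes per direction and comparison are named, and Psmb5, Psmb6, Psmb7, Irf1, Rfx5, Psme1 and Psme2; others named were chosen after their values were seen, and 1 gene of that rule is not reported here. Members, lists and tests were chosen with earlier results of these data known. Cell type markers were counted for dendritic, B, T and NK, macrophage and Kupffer, sinusoidal endothelial, bile duct and hepatocyte lists. Alternatives were equal FPKM totals, median ratio scaling, a pseudocount of 0.1, a minimum of 5 FPKM, no filter, limma voom on the recovered reads, the 2 compared groups alone, each library left out, and the replicate number as a block. The fit was tested on simulated data. Deposited coordinates, of an unnamed build, were not used. Promoters came from RefSeq on GRCm38.p6, and shared stretches of 50 and 100 bases from GENCODE M21 transcripts.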

Additional observations from a re-analysis of the deposited data

Results flagged for a closer look

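H2-Aa, the alpha chain of the class II molecule A, read 1.38 FPKM in normal liver 3, far below the other 3 normal livers at 3.17, 2.88 and 2.99 FPKM. Its gap to the nearest of them was 0.836 of the group's whole range. Normal livers were examined in this way for 26 members, and chance alone marks about 1 in 20 such groups. Normal liver 3 was also the lowest normal liver for Cd74 and the other tested class II chains.

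H2-Q1 differed between the tumour groups by a test of that difference, with a log2 change of 1.64 (SE 0.27, limma's adjusted p = 0.00708) for Akt/Nras/Foxo1AAA against Akt/Nras tumours. Its changes from normal liver ran in opposite directions, at 0.64 in Akt/Nras/Foxo1AAA tumours and -1.0 in Akt/Nras tumours. The first call was lost in 7 of the 10 fits that left out a library. The second was not made with equal totals (-0.21, limma's adjusted p = 0.451).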

How the results depend on the processing

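Over 26 members, 3 comparisons and the alternatives, 1212 changes kept their direction and side of the threshold, 77 lost and 51 gained a call, and 34 changed sign. Equal totals moved most. Against normal liver the class I arm then held 16 higher and 1 lower in Akt/Nras/Foxo1AAA tumours and 15 higher and 1 lower in Akt/Nras tumours, the class II arm 7 higher in each, and between the tumour groups 3 higher and 1 lower. Signs changed with equal totals for B2m in Akt/Nras/Foxo1AAA tumours against normal liver (0.57), for B2m (0.35), H2-T10 (0.34), Tap2 (0.89), Psmb9 (0.42), H2-T22 (0.45) and Nlrc5 (0.57) in Akt/Nras tumours against normal liver, and for H2-D1 (-0.089), Tapbp (-0.11), H2-Q4 (-0.11), H2-Ab1 (-0.044), H2-Aa (-0.073) and H2-DMa (-0.035) between the tumour groups. Of these, B2m, H2-T10 and Psmb9 in Akt/Nras tumours went from called lower to called higher (limma's adjusted p = 0.00791, 0.0105 and 0.0131 with equal totals). Small changes also changed sign with the median ratio scaling (B2m 0.015 in Akt/Nras/Foxo1AAA tumours, Tap2 0.16 and Nlrc5 0.023 in Akt/Nras tumours) and with voom (Tap2 0.17 and Nlrc5 0.039 in Akt/Nras tumours).

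Class II calls in Akt/Nras/Foxo1AAA tumours numbered 4 with the median ratio scaling, 1 with a minimum of 5 FPKM and 1 with no filter. In Akt/Nras tumours they numbered 0 with the minimum of 5 FPKM and 0 with no filter. Cd74 and H2-Ab1 were the 2 class II genes that reached 5 FPKM in at least 3 libraries. Class I calls higher between the tumour groups numbered 3 with no filter and 0 with the tumour groups alone. With the replicate number as a block they numbered 2. Same-numbered samples did not deviate together (correlations of -0.17 to 0.11), so the numbers were not taken as pairs.

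Leaving out 1 library gave 1 to 3 class II calls higher in Akt/Nras/Foxo1AAA tumours and 0 to 4 in Akt/Nras tumours, and 2 to 8 class I calls higher between the tumour groups. Log2 changes that changed sign ranged from -0.054 to 0.17 for Psmb9 in Akt/Nras/Foxo1AAA tumours, and in Akt/Nras tumours from -0.18 to 0.12 for Tap2, -0.015 to 0.12 for Tapbp and -0.091 to 0.14 for Psmb8. Between the tumour groups they ranged from -0.087 to 0.35 for H2-Aa, -0.23 to 0.15 for H2-Ea, -0.021 to 0.39 for H2-T23 and -0.18 to 0.54 for H2-Q6. Apart from scaling and sample number, the cause of these shifts was not tested. Depth limits H2-Ea, at 2 to 21 reads, and H2-DMb1, at 4 to 128.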

Other observations

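Costimulators and checkpoint ligands, which decide what a T cell does with the peptide it is shown, were mostly low. Of 7 genes 3 were tested, and 2 were called higher than normal liver in both tumour groups. Among all tested genes the share called higher was 26.8% in Akt/Nras/Foxo1AAA tumours and 31.1% in Akt/Nras tumours. Cd40, the receptor through which T cells license antigen-presenting cells, read 2.67 to 6.93 FPKM in Akt/Nras/Foxo1AAA tumours and 2.88 to 5.09 FPKM in Akt/Nras tumours, against 0.0614 to 0.200 FPKM in normal livers (log2 change 2.19, SE 0.24, in each; limma adjusted p = 1.91e-05 and 1.34e-05). Cd276, which encodes B7-H3, read 7.94 to 8.79 FPKM in Akt/Nras/Foxo1AAA tumours and 10 to 11 FPKM in Akt/Nras tumours, against 2.06 to 3.23 FPKM in normal livers (1.34 and 1.61, SE 0.11 each; limma adjusted p = 2.1e-06 and 3.38e-07). Cd274, which encodes PD-L1, was too low to test, at 0.317 to 0.639 FPKM over all libraries. Between the tumour groups limma called 0 of the 3, with 1 lower at an unadjusted p under 0.05.

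Markers of bile duct cells rose, with 3 of the 4 tested called higher in Akt/Nras/Foxo1AAA tumours and 4 of 4 in Akt/Nras tumours. Of 6 markers of sinusoidal endothelium 2 were called higher in each tumour group, and 0 lower in Akt/Nras/Foxo1AAA tumours (1 at an unadjusted p under 0.05) and 2 lower in Akt/Nras tumours. Among all tested genes 26.8% and 31.1% were called higher, and 36.5% and 37.9% lower, in Akt/Nras/Foxo1AAA and Akt/Nras tumours. With equal totals the endothelial counts became 5 and 4 higher, and 0 lower in each. The share of all tested genes called higher was then 61.0% and 69.2%.

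Outside the protein-coding rule, 7 H2- genes are pseudogenes, and 5 of them were listed at 0 in all libraries. H2-K2 averaged 12.2 ± 2.80 FPKM in Akt/Nras/Foxo1AAA tumours and 7.10 ± 1.13 FPKM in Akt/Nras tumours (SD, n = 3 each), against 23.2 ± 4.80 FPKM in normal liver (SD, n = 4). H2-T-ps averaged 2.64 ± 1.05 FPKM, 3.69 ± 0.968 FPKM and 6.17 ± 2.76 FPKM in the same order.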
